A study of Rattus norvegicus with 18 samples.

Results

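Rat miR-199a and miR-214 were followed in gastrocnemius muscle across age and caloric restriction (CR). The members are the rows of the count table named miR-199a or miR-214, whichever arm of the hairpin they come from, and there are 4 of them among 909 entries: rno-miR-199a-3p, rno-miR-199a-5p, rno-miR-214-3p and rno-miR-214-5p. None of the 3 members with enough counts to test was called in any comparison of age or diet. The fourth, a miR-214-5p entry annotated with 17 bases, had 7 counts in all 18 libraries together.

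The 18 small RNA libraries came from whole gastrocnemius muscle, each from a separate male rat of the Brown Norway strain. The young AL group held 6 rats of 6 months fed ad libitum (AL), the old AL group 6 rats of 28 months fed ad libitum, and the old CR group 6 rats of 28 months kept on 55% of the ad libitum intake. All rats fed freely until 2 months of age, when the CR rats began restriction. These libraries include no young CR group. The libraries held 34940346 to 83110905 counts each. Replicate numbers run from 1 to 6 in young AL, 7 to 12 in old AL and 13 to 18 in old CR. In bulk muscle, fewer cells of a type and less RNA per cell cannot be told apart.

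The genes Mir199a2 and Mir214 lie close together inside an intron of Dnm3, on the strand opposite to that gene. In mouse and human both of these hairpins are cut from 1 long non-coding transcript, Dnm3os, that the transcription factor Twist1 can switch on. Whether genes other than Mir199a2 add to the miR-199a counts was not tested. Both miRNAs are known from fibroblasts and other mesenchymal cells, where miR-199a-5p has been tied to TGF-beta signalling and fibrosis, and in muscle precursor cells miR-214-3p is known to repress the Polycomb methyltransferase Ezh2. Each hairpin can give a 5p and a 3p mature strand, of which usually 1 is loaded into an Argonaute protein while the other is degraded, and the seed, bases 2 to 8, largely decides which transcripts a miRNA pairs with.

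The 4 mature sequences of the members are given here because the seed separates what the arms can target, and because the miR-214-5p entry is shorter than the others. The sequence of rno-miR-3120, no member, is added because its gene is annotated on the opposite strand of the miR-214 hairpin. A further reason is that it followed the members' level most closely under the main scaling used here. All are RNA, written 5′ to 3′ from RefSeq (assembly GRCr8), with the seed in capitals.
rno-miR-199a-3p: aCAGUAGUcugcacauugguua
rno-miR-199a-5p: cCCAGUGUucagacuaccuguuc
rno-miR-214-3p: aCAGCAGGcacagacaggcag
rno-miR-214-5p: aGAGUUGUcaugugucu
rno-miR-3120: cACAGCAAguguagacaggca

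The 3p strands of both genes resembled each other at the seed. miR-199a-3p and miR-214-3p shared the first 4 bases and matched at 5 of the 7 seed positions, whereas miR-199a-5p and miR-214-5p matched at 3 of 7. No other mature sequence in the RefSeq table used here carried exactly the seed of a member. How many of the known rat miRNAs that table covers was not examined. In GRCr8 the genes Mir199a2 and Mir214 lie on the plus strand of chromosome 13, 5310 bases apart, and Mir3120 overlaps 106 bases of Mir214 on the minus strand. The submitters' processing notes name the older build Rnor_6.0, so no coordinates are given.

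The miR-214-5p sequence was 17 bases long, against 21 to 23 bases for the other members. The Mir214 hairpin of 108 bases is shown with both annotated arms in capitals, because the 5p arm does not lie opposite the 3p arm, and then with the complement of miR-3120 in capitals.
Mir214, annotated 5p and 3p arms: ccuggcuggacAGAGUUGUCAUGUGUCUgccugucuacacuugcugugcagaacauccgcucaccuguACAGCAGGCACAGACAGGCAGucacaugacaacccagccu
Mir214, complement of miR-3120: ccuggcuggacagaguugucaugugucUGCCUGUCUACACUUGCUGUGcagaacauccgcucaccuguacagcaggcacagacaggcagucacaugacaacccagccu

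Counted from the 5′ end of the hairpin, miR-214-5p covered bases 12 to 28 and miR-214-3p bases 69 to 89. In the lowest-energy fold, at -67.5 kcal/mol, 18 bases of miR-214-3p were paired, and their partners lay between bases 27 and 47. Of these partners, 17 lay in the stretch complementary to miR-3120 (bases 28 to 48) and 2 in the annotated miR-214-5p, with 1 base shared by both. The fold is a prediction from the sequence and not a measurement. The library kit keeps the strand of the RNA, but no source used here gives the strand setting of the counting, and reads from the hairpin's own 5′ side and reads from miR-3120 on the other strand cannot be told apart with certainty in the table.

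**Figure D1:**
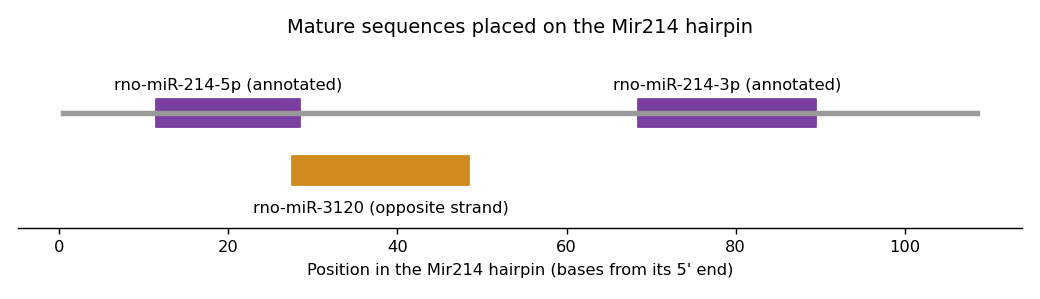
Positions of the annotated mature sequences along the Mir214 hairpin, in bases from its 5′ end. Purple boxes are the annotated arms of miR-214, at bases 12 to 28 and 69 to 89, and the orange box is the stretch complementary to miR-3120, at bases 28 to 48, which adjoins the 5p box with an overlap of 1 base.

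The level of each member was expressed as CPM (counts scaled to a library of 1e+06), scaled by the trimmed mean of M values (TMM). miR-199a-3p was the most abundant member, with a mean of 1166 CPM over the 18 libraries, rank 34 of the 689 known miRNAs that had any count. miR-199a-5p followed at 273 CPM (rank 57) and miR-214-3p at 20.8 CPM (rank 137). miR-214-5p had 7 counts in all 18 libraries together, beside 24363 for miR-214-3p. In the predicted fold that entry held 2 partners of miR-214-3p bases, so these counts do not compare the paired strands of the hairpin. The ligation and amplification steps of small RNA libraries favour some sequences over others, and this was not measured here, so the order between miRNAs is an order of counts. The 4 members took 0.0749% to 0.314% of a library's counts.

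miR-199a-3p had similar levels in the 3 groups. In young AL it ranged from 799 to 1456 CPM with a median of 1159. The range of old AL was 859 to 1334 CPM with a median of 1068, and that of old CR was 897 to 1772 CPM with a median of 1229. The groups overlapped throughout, with means ± SD of 1152 ± 236, 1092 ± 166 and 1255 ± 298 CPM (n = 6 each). Old CR replicate 16 held the highest value, and old AL lay wholly within the range of young AL.

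miR-199a-5p, the strand tied to TGF-beta signalling, also overlapped between all groups. It ranged from 193 to 308 CPM in young AL, with a median of 260. Old AL spanned 220 to 353 CPM with a median of 272, and old CR 221 to 475 CPM with a median of 271. Old AL replicate 7 and old CR replicate 16 stood above every young rat, while the other old rats lay within the young range. Group means were 255 ± 48.9, 274 ± 44.3 and 291 ± 93.7 CPM (SD, n = 6).

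miR-214-3p, the strand tied to Ezh2, was low and variable, with group means of 19.1 ± 5.83, 19.8 ± 7.00 and 23.4 ± 5.34 CPM (SD, n = 6). Young AL ranged from 11.5 to 27.5 CPM with a median of 18.0. Old AL ranged from 14.2 to 33.0 CPM with a median of 17.9, its highest value in replicate 7, and old CR from 18.2 to 30.0 CPM with a median of 22.0. All 6 old CR rats lay above the medians of young AL and of old AL, yet no old CR value exceeded the highest old AL value.

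miR-214-5p was listed at 0 in 14 of 18 libraries. Its counts were 2 in young AL replicate 5, 2 in old AL replicate 7, 1 in old AL replicate 10 and 2 in old AL replicate 12, and it had none in the 6 old CR libraries. A count of 0 allows up to 3 counts, equal to 0.0286 to 0.0898 CPM depending on the library, for counting error only. It fell under the minimum of 10 counts and was not tested, and differences between groups were not detectable with so few counts.

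**Figure D2:**
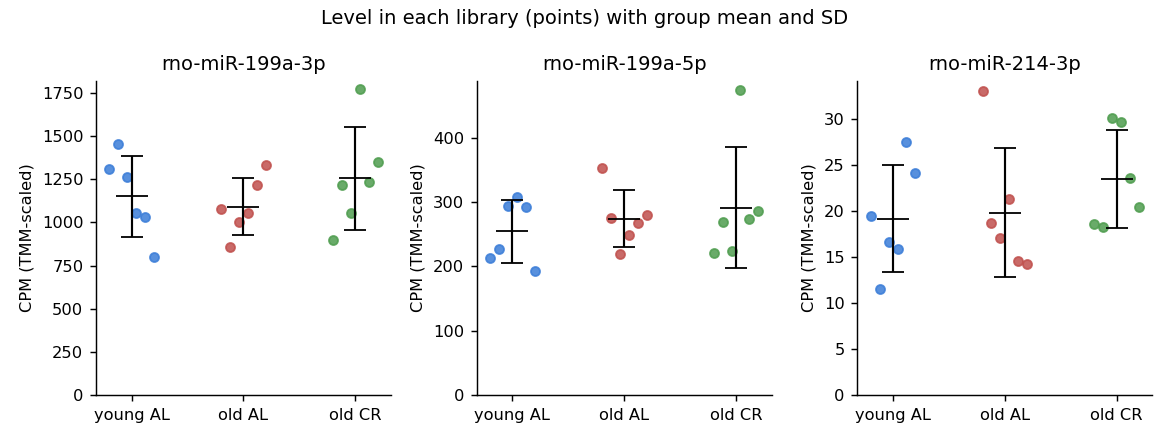
TMM-scaled CPM of miR-199a-3p, miR-199a-5p and miR-214-3p in each library, with horizontal bars at the group mean and error bars of 1 SD (n = 6 rats per group). The groups overlap for each miRNA, and the highest points are old CR replicate 16 at 1772 and 475 CPM for the miR-199a arms and old AL replicate 7 at 33.0 CPM for miR-214-3p.

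The comparison of old AL with young AL asks what changed with age under free feeding. With edgeR's quasi-likelihood test, 0 of the 3 tested members were called (adjusted p of at most 0.05 and at least 1.5-fold), beside 3.28% of the 732 entries tested. The log2 fold change of miR-199a-3p was -0.08 (SE 0.164, 95% interval -0.43 to 0.28, edgeR adjusted p = 0.870). For miR-199a-5p it was 0.11 (SE 0.138, interval -0.20 to 0.41, edgeR adjusted p = 0.735), and for miR-214-3p 0.03 (SE 0.256, interval -0.53 to 0.59, edgeR adjusted p = 0.971). In linear terms the intervals were 0.741-fold to 1.21-fold for miR-199a-3p and 0.873-fold to 1.32-fold for miR-199a-5p, both inside a 1.5-fold change, whereas that of miR-214-3p reached from 0.694-fold to 1.51-fold. The median log2 fold change of the 3 members was 0.03, beside 0.06 for all tested entries, of which the central range (5th to 95th percentile) was -2.27 to 3.02.

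The comparison of old CR with young AL sets old rats after long restriction against freely fed young rats, so that age and diet differ together. Again 0 of 3 members were called, beside 9.32% of the 730 entries tested. The log2 fold change was 0.12 for miR-199a-3p (SE 0.184, interval -0.28 to 0.52, edgeR adjusted p = 0.786). It was 0.19 for miR-199a-5p (SE 0.204, interval -0.26 to 0.63, edgeR adjusted p = 0.651) and 0.29 for miR-214-3p (SE 0.225, interval -0.20 to 0.77, edgeR adjusted p = 0.495). Without old CR replicate 16 the values of both miR-199a arms were -0.0052 and -0.0049. The members' median of 0.19 stood beside 0.08 over all entries, and this comparison shares its young AL libraries with the one before.

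The comparison of old CR with old AL asks what restriction changed at the same age. Here too 0 of 3 members were called, beside 0.272% of the 736 entries tested. miR-199a-3p had a log2 fold change of 0.21 (SE 0.169, interval -0.16 to 0.58, edgeR adjusted p = 0.664), which in linear terms ended at 1.49-fold. miR-199a-5p had 0.10 (SE 0.195, interval -0.33 to 0.52, edgeR adjusted p = 0.911), and miR-214-3p 0.25 (SE 0.231, interval -0.25 to 0.75, edgeR adjusted p = 0.713). Old AL replicate 7, with the highest miR-214-3p level, also had the highest TMM factor of the 18 libraries (2.14, against 0.639 at the lowest). Without it the log2 fold change of miR-214-3p was 0.45 (edgeR adjusted p = 0.399).

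In each of the 3 comparisons 0 of 3 members had an unadjusted p under 0.05, beside 23.4%, 25.5% and 12.0% of all tested entries. DESeq2 called 0 of 3, and it called 12.2%, 15.8% and 2.73% of the entries it tested. In no comparison were the groups of a member free of overlap, beside 3.55%, 5.75% and 0.543% of all tested entries. The standard errors of the members, 0.138 to 0.256, were below the median over all entries (0.381 to 0.400). A p above the threshold does not show that the groups had equal levels, and the intervals give the changes that remain possible.

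**Figure D3:**
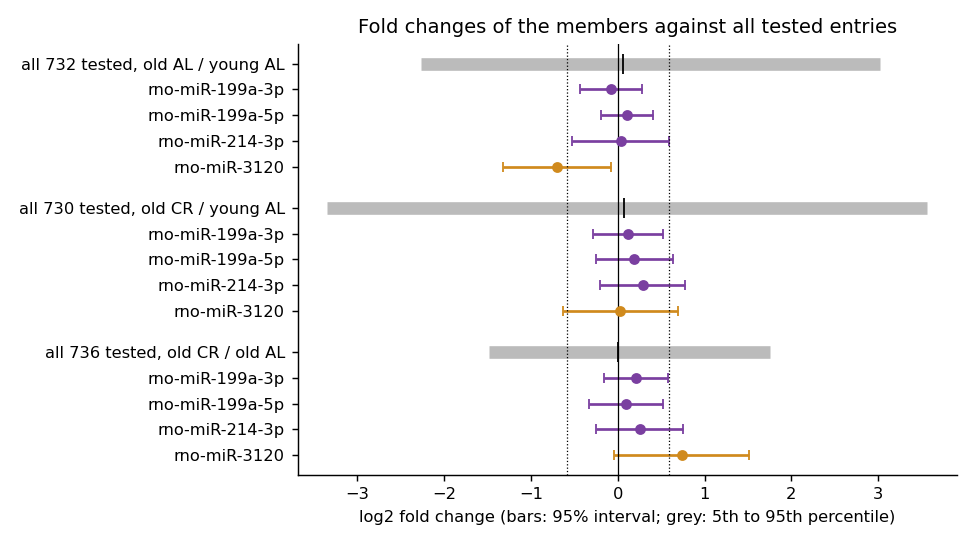
Log2 fold changes with 95% intervals for miR-199a-3p, miR-199a-5p and miR-214-3p (purple) and miR-3120 (orange) in the 3 comparisons. Grey bars span the 5th to 95th percentile of all tested entries, with a black tick at their median, and dotted lines mark a 1.5-fold change. The members lie between -0.08 and 0.29, while miR-3120 lies at -0.70 in old AL against young AL and at 0.73 in old CR against old AL, and no value shown was called.

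Ratios within a library do not depend on how libraries are scaled. miR-199a gave both of its arms in every library, with a geometric mean of 0.222 counts of the 5p arm per count of the 3p arm for young AL, 0.251 for old AL and 0.229 for old CR. The log2 ratio differed between groups by 0.18 (old AL minus young AL, SE 0.197), 0.05 (old CR minus young AL, SE 0.168) and -0.13 (old CR minus old AL, SE 0.131), each with an adjusted p of 0.779 (exact permutation test, two-sided, over 9 ratio tests). Young AL replicates 1 and 2 stood apart, with log2 ratios of -2.61 and -2.68, below the -2.26 to -1.61 of all other libraries. These are also the libraries whose leading numbers in the labels, 19 and 20, lie outside the run of the rest. By the trailing number in the labels they run on with the other young AL libraries. That trailing number falls in a separate block for each group, and the labels name no batch. Without young AL replicates 1 and 2 the differences from young AL were -0.06 for old AL and -0.19 for old CR. These differences had the opposite direction to the values over all libraries (exact permutation p = 0.762 and 0.105, neither below 0.05 after adjustment).

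miR-199a-3p and miR-214-3p did not keep a fixed ratio. The count of miR-199a-3p per count of miR-214-3p ran from 32.7 in old AL replicate 7 to 127 in young AL replicate 2, with geometric means of 61.5 for young AL, 57.1 for old AL and 53.5 for old CR. Differences in the log2 ratio were -0.11, -0.20 and -0.09 in the 3 comparisons (SE 0.370, 0.323 and 0.272), again each with an adjusted p of 0.779 by the exact permutation test. The log2 ratio of miR-214-5p to miR-214-3p differed by 0.26 (old AL minus young AL), -0.87 (old CR minus young AL) and -1.13 (old CR minus old AL), with adjusted p of 0.779, 0.136 and 0.136 by the exact permutation test. Those values rest on 0 to 2 counts of the 5p arm and on the prior count of 0.5, and give no fold.

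**Figure D4:**
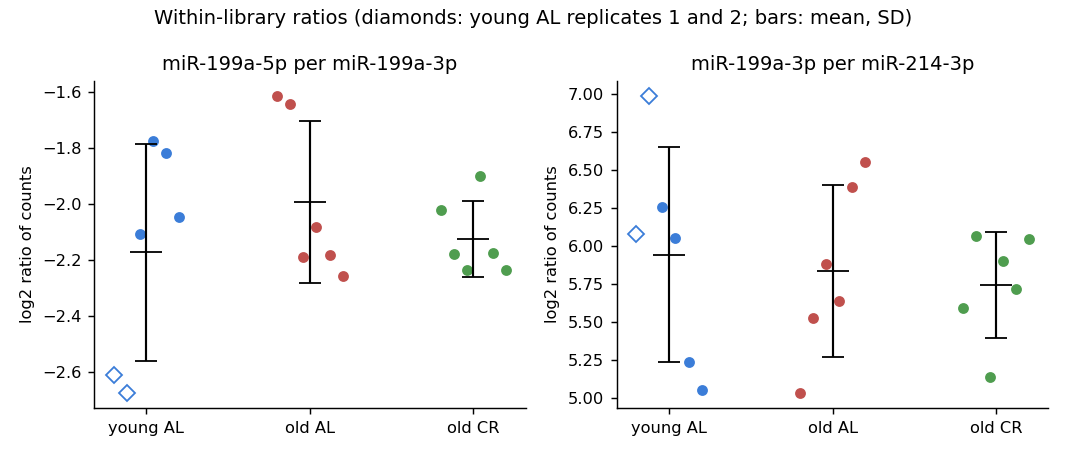
Log2 ratio of counts within each library for miR-199a-5p per miR-199a-3p (left) and miR-199a-3p per miR-214-3p (right), with the group mean and SD (n = 6). Open diamonds are young AL replicates 1 and 2, which lie at -2.61 and -2.68 in the left panel, below all other libraries.

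The members were then compared with each other over the 18 libraries. miR-199a-3p and miR-199a-5p, both annotated to Mir199a2, had Pearson's r = 0.535 (permutation p = 0.0225, adjusted over 8 relations 0.180) and Spearman's rho = 0.348 (permutation p = 0.157, adjusted 0.743). Without young AL replicate 6 and old CR replicate 16, the libraries farthest from the median, r was 0.0225, so that the relation rests on those libraries. Group by group, r was 0.153 for young AL, 0.157 for old AL and 0.949 for old CR. miR-199a-3p and miR-214-3p had r = -0.139 (rho = -0.185, permutation p = 0.583 and 0.465), and miR-199a-5p and miR-214-3p had r = 0.328 (rho = 0.125, permutation p = 0.182 and 0.619). After adjustment none of the 8 relations passed, by r or by rho. With libraries scaled by their totals alone 7 of the 8 passed by r (permutation tests, adjusted p at most 0.00466), and miR-199a-3p with miR-214-3p turned to r = 0.699.

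As a check of their link with mesenchymal cells, the members' mean log2 level was set beside lists of miRNAs known from these cells. The mean level had r = 0.408 with the mesenchymal and smooth muscle list (rho = 0.325, permutation p = 0.0915 and 0.188, adjusted 0.366 and 0.743). It had r = 0.0569 with the fibrosis list of miR-21 and miR-29 (rho = -0.0382, permutation p = 0.830 and 0.883) and r = -0.0449 with the striated muscle list (rho = 0.0630, permutation p = 0.852 and 0.808). The list means left out entries with very low levels, such as miR-21-3p at 0.0651 CPM. With the TMM factor r was 0.236 and with the library total -0.00456 (rho = 0.265 and -0.199, permutation p = 0.288 and 0.427 for rho). These libraries cannot assign the members to fibroblasts, since no cell type was isolated.

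The listed miRNAs of mesenchymal cells and fibrosis give the setting of the members. The 10 mesenchymal entries include miR-143-3p, a smooth muscle miRNA, at a mean of 6450 CPM. Of these 10, 1 rose in old AL against young AL and none fell, beside 3.28% called of all 732 entries in either direction. By sign 6 were higher and 4 lower, at a median log2 fold change of 0.03. The entry that rose was miR-140-3p, known from cartilage and other mesenchymal tissue, at 234 ± 40.5 CPM for young AL, 368 ± 45.4 CPM for old AL and 263 ± 39.5 CPM for old CR (SD, 6 rats each). Its log2 fold change with age was 0.64 (SE 0.147, edgeR adjusted p = 0.0353), and its call was lost in 10 of the 12 fits that left out 1 library (lowest log2 fold change 0.57, highest edgeR adjusted p = 0.0836), without young AL replicates 1 and 2 (0.70, edgeR adjusted p = 0.0754), with upper-quartile factors (0.66, adjusted p = 0.0928) and with library totals (0.82, adjusted p = 0.288). DESeq2 called it as well (adjusted p = 0.000239). In old CR against young AL and against old AL 0 of 10 were called by edgeR or DESeq2, with 0 and 1 at an unadjusted edgeR p under 0.05.

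In the fibrosis list, 9 entries were in the table, of which 8 were tested, and 0 were called in any comparison by edgeR. In old AL against young AL 6 were higher and 2 lower, with a median log2 fold change of 0.33, beside 0.06 for all entries. At an unadjusted p under 0.05 there were 2 of 8 entries, beside 23.4% of all 732 tested, namely miR-21-5p, a miRNA raised in many fibrotic tissues, and miR-29b-3p, known to repress collagens. miR-21-5p had a log2 fold change of 0.66 (SE 0.253, edgeR adjusted p = 0.153), from 983 ± 269.7 to 1546 ± 604 CPM, and miR-29b-3p had 0.69 (SE 0.240, edgeR adjusted p = 0.126). DESeq2 called 1 of them, miR-29b-3p, in old AL against young AL (adjusted p = 0.0454) and in old CR against young AL (adjusted p = 0.00812), where edgeR gave 0.78 and an adjusted p of 0.0512. Both were named after their values were seen. The most abundant entry of the list was miR-29a-3p at 1271 CPM, near miR-199a-3p. In old CR against young AL and against old AL the list's medians were 0.19 and -0.01, each with 1 of 8 entries at an unadjusted edgeR p under 0.05, beside 25.5% and 12.0% of all entries.

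By rule, the 5 known miRNAs most like the members were taken among 167 with a mean of at least 10 CPM, by the correlation of log2 level with the members' mean over 18 libraries. miR-3120 ranked first with r = 0.619 (rho = 0.614), ahead of miR-218b with 0.470, miR-218a-5p with 0.463, miR-497-5p with 0.426 and miR-139-5p with 0.406. The values are descriptions without a test, and all points share the scaling of their library. With deviations from the group means the r of miR-3120 was 0.709. With library totals alone it was 0.860, below miR-497-5p with 0.883 and miR-152-3p of the mesenchymal list with 0.893. The top rank of miR-3120 thus depended on the scaling.

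miR-3120, on the strand opposite miR-214, was therefore described like a member, a choice made after its values were seen. Its mean was 10.4 CPM (rank 170), with 12174 counts in all beside 24363 for miR-214-3p. Young AL ranged from 7.20 to 16.5 CPM (median 11.8), old AL from 4.59 to 13.1 CPM (median 5.52), and old CR from 7.16 to 19.4 CPM (median 10.5). In old AL 4 of 6 rats lay below every young rat, and replicates 7 and 8 lay within the young range.

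The log2 fold change of miR-3120 was -0.70 in old AL against young AL (SE 0.287, interval -1.33 to -0.08, edgeR adjusted p = 0.174), 0.73 in old CR against old AL (SE 0.357, interval -0.04 to 1.51, edgeR adjusted p = 0.414) and 0.03 in old CR against young AL (edgeR adjusted p = 0.977), so it was not called. Over the alternatives the adjusted p in old AL against young AL was never below 0.0962. Its log2 ratio to miR-214-3p differed by -0.80 between old AL and young AL (old AL minus young AL, SE 0.268, exact permutation p = 0.0173, adjusted over 3 tests 0.0519), with geometric means of 0.620 for young AL, 0.357 for old AL and 0.487 for old CR. Leaving out 1 library at a time gave differences of -0.94 to -0.68 and adjusted p of 0.0260 to 0.104 (exact permutation test), below 0.05 when young AL replicate 1 was out (0.0260) or when replicate 8 of old AL was out (0.0390) and above it in the other 10 cases. None of these ratio p-values accounts for the choice of miR-3120 among 167 miRNAs by its values in the same libraries. They are descriptions only.

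The following correlations are descriptions without a test, since miR-3120 was chosen by its correlation with the members' mean. Over the 18 libraries r with miR-199a-5p was 0.586 (rho = 0.692). Group by group, r was 0.759 for young AL, 0.820 for old AL and 0.777 for old CR. Without old AL replicate 9 and old CR replicate 16 r was 0.411. With miR-214-3p, on the opposite strand, r was 0.474 (rho = 0.449), and with miR-199a-3p 0.203 (rho = 0.216).

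**Figure D5:**
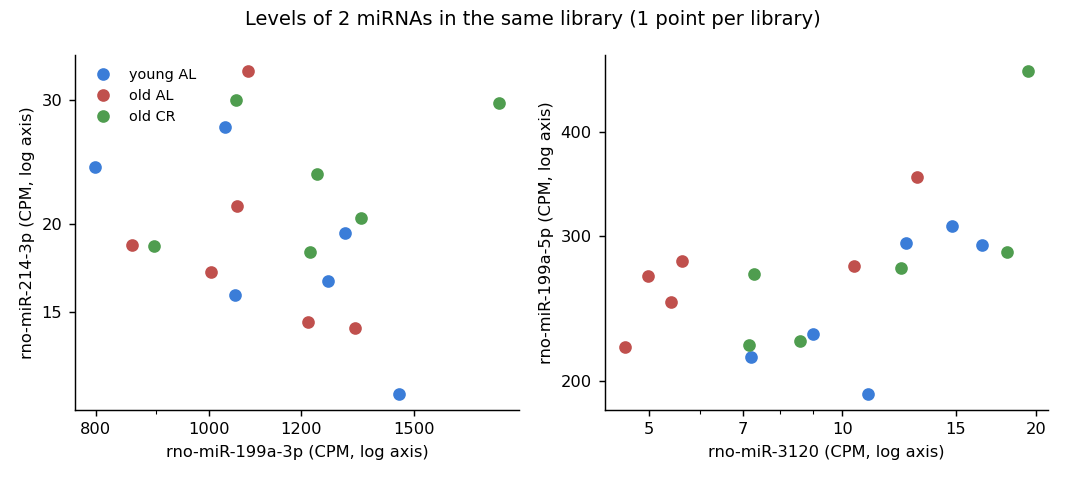
Level of miR-214-3p against miR-199a-3p (left) and of miR-199a-5p against miR-3120 (right), in TMM-scaled CPM on log axes, with 1 point per library coloured by group. On the left the points show no common slope (r = -0.139), and on the right libraries with more miR-3120 had more miR-199a-5p (r = 0.586).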

How the data were processed

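The authors trimmed adapters with Cutadapt 1.2.1 and low-quality ends with Sickle, used miRDeep2 for known and newly predicted miRNAs, and deposited raw counts (by featureCount, in their methods) of 763 known and 146 predicted entries in 18 libraries. The submitters' processing notes also name Bowtie2 2.4.0 and the build Rnor_6.0. How reads with several matches were counted, on which strand and against which miRBase release is not given in the sources used here. Library totals were 34940346 to 83110905 counts (medians 54295830.5 for young AL, 67859987 for old AL and 69628037 for old CR), and 0 columns were left unused. miR-1 entries took 23.8% to 33.0% of a library's counts. No pair of replicates was within counting error of each other (chi-square per degree of freedom at least 982).

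Counts were scaled by TMM and tested with edgeR 4.0.16 (quasi-likelihood, robust, two-sided) in R 4.3.3, in a separate fit for each pair of groups over all entries with at least 10 counts, with Benjamini-Hochberg adjustment over all of them. Intervals come from the t distribution of that fit. DESeq2 1.42.0, the tool of the study's methods, was an alternative. Ratios within a library (prior count 0.5) were compared by the exact permutation test, with a smallest possible p of 0.00216, and correlations by 100000 permutations. Of 11 planned relations 8 were computed, because miR-214-5p was at 0 in most libraries. No entry other than the members had counts within 10% or 2 counts of a tested member in every library. RNAfold of ViennaRNA 2.7.2 folded the hairpin, and 4 of 4 members were found in the RefSeq sequences. The steps were tested on simulated data.

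Named miRNAs are the 4 members, the called and the most abundant entries of 7 marker or pathway lists, entries sharing a seed or counts with a member, and the 5 most like them. The members and lists were chosen with earlier results of these data known. Alternatives were other scalings, tools, filters and fits, leaving out each library, and leaving out young AL replicates 1 and 2. The authors' cell culture and RT-qPCR were not used here.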

Additional observations from a re-analysis of the deposited data

Results flagged for a closer look

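Single libraries stood apart in 4 of 30 sets of 6 libraries examined, where chance alone flags about 1 independent set in 20. The sets share libraries and are not independent. Each flagged library had a gap to its nearest neighbour wider than Dixon's limit for its group. miR-199a-5p was 475 CPM in old CR replicate 16, which also had the highest miR-199a-3p and miR-3120 levels of its group. miR-214-3p was 33.0 CPM in old AL replicate 7, and the 4 members took 0.314% of that library's counts, the highest share of all, beside its TMM factor of 2.14. miR-214-5p was 0.0285 CPM in young AL replicate 5, which is 2 counts. Its group was otherwise at 0, so that any count in a single library would have been flagged. The part of the library composition in these values was not tested.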

How the results depend on the processing

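No member was called in any of the 204 alternative fits of a member's fold change, with log2 fold changes from -0.26 to 0.45 and a lowest adjusted p of 0.270, and 188 kept their direction. The other 16 changed sign, from main values of up to 0.25, and the causes were not tested. With library totals alone the median over all entries moved from 0.06, 0.08 and 0.01 to 0.23, -0.05 and -0.27, and miR-199a-3p was 0.056 in old AL against young AL, while in old CR against old AL miR-199a-3p was -0.018, miR-199a-5p -0.26 and miR-214-3p -0.18. With upper-quartile factors miR-199a-3p was -0.0080 in old CR against young AL and miR-199a-5p -0.031 in old CR against old AL, and with filterByExpr miR-214-3p was -0.015 in old AL against young AL. Without young AL replicates 1 and 2 miR-199a-3p was 0.091 and miR-214-3p -0.089 in old AL against young AL.

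Leaving out 1 library at a time gave log2 fold changes of -0.17 to 0.16 for miR-214-3p in old AL against young AL (negative when 1 of young AL replicates 2, 3 and 4, or old AL replicate 7, was out), of -0.0052 to 0.20 for miR-199a-3p and -0.0049 to 0.27 for miR-199a-5p in old CR against young AL, and of -0.10 to 0.18 for miR-199a-5p in old CR against old AL, the lowest values without old CR replicate 16.

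The log2 ratio of the miR-199a arms was -0.054 (medians) and -0.058 (without young AL replicates 1 and 2) in old AL against young AL, -0.10 and -0.19 in old CR against young AL, and -0.053 to 0.13 there when leaving out 1 library (negative without young AL replicate 1 or 2). The ratio of miR-199a-3p to miR-214-3p was 0.19 and 0.094 against young AL without young AL replicates 1 and 2, and 0.050 by medians in old CR against old AL. Leaving out 1 library it was -0.29 to 0.10 in old AL against young AL (positive when young AL replicate 2 or old AL replicate 7 was out), -0.38 to 0.0091 in old CR against young AL (positive when young AL replicate 2 was out) and -0.25 to 0.051 in old CR against old AL (positive when old AL replicate 11 or 12 or old CR replicate 15 was out). That of the miR-214 arms was -0.11 to 0.52 in old AL against young AL (negative without old AL replicate 12), and could not be computed without a prior count.

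Correlations depended on the scaling. With library totals alone r was 0.856 for the miR-199a arms, 0.699 for miR-199a-3p with miR-214-3p and 0.821 for miR-199a-5p with miR-214-3p, and the members' mean had r = 0.904 with the TMM factor, 0.701 with the striated, 0.733 with the fibrosis and 0.890 with the mesenchymal list (permutation tests, adjusted p at most 0.00466 in each). Without the 2 farthest libraries r was -0.0702 with the TMM factor and 0.281 with the striated list, and by deviations from group means -0.0462 with the fibrosis list. For miR-3120, r with miR-199a-3p was -0.0949 without 2 libraries, and its fold change in old CR against young AL was -0.062 with upper-quartile factors, -0.053 with library totals, -0.055 with filterByExpr, -0.027 without a filter, -0.15 without young AL replicates 1 and 2, and -0.16 to 0.15 leaving out 1 library.

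Among all tested entries 24, 68 and 2 were called in the 3 comparisons. In old AL against young AL other settings gave 0 (library totals) to 99 (DESeq2 without its filters), with 37 under filterByExpr and 53 among known miRNAs only. In old CR against young AL DESeq2 gave 109 and 129, and in old CR against old AL 19 and 22, with 0 under upper-quartile factors, library totals, no robust estimation or known miRNAs only. Leaving out 1 library gave 9 to 20, 45 to 67 and 0 to 3. No paired analysis was made, since the groups hold separate rats and no source used here links rats between groups. The 7 counts of the miR-214-5p entry cannot show a difference, and the strand setting limits what lies opposite miR-3120.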

Other observations

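Other cell types measured beside the members showed no called entry in any comparison by edgeR. In the comparisons that include old AL, the sign shared by all 8 leukocyte miRNAs rested on 1 library, old AL replicate 8. The summed level of that library, 609 CPM, stood apart from the 111 to 166 CPM of the other old AL libraries. The list's summed level had medians of 160 CPM for young AL, 141 for old AL and 145 for old CR, and miR-142-5p, known from blood cells, was 139 CPM in that library, with 31.9 ± 52.4 CPM over old AL (SD, n = 6). In the other old AL libraries miR-142-5p was 8.34 to 14.2 CPM, beside 4.02 to 8.75 CPM in young AL. In old AL against young AL 8 of 8 had positive log2 fold changes over all libraries, at a median of 0.78 beside 0.06 over all entries, and without old AL replicate 8, left out after its values were seen, 4 were positive and 4 negative, at a median of -0.066. At an unadjusted p under 0.05 there were 2 of 8 over all libraries and 2 of 8 without old AL replicate 8, beside 23.4% of all entries each time. In old CR against old AL 8 of 8 were negative at a median of -0.27, and without that library 7 of 8 were positive at a median of 0.36. At an unadjusted p under 0.05 there were 0 and 1 of 8, beside 12.0% and 15.7% of all entries. In old CR against young AL 7 of 8 were positive at a median of 0.48, with 0 at an unadjusted p under 0.05. Old CR replicate 18 had the highest summed level of its group, 241 CPM, with miR-142-5p at 47.8 CPM. Its part in the signs of the comparisons that include old CR was not tested. The most abundant entry was miR-150-5p, a lymphocyte miRNA, at 132 CPM. The 3 endothelial entries, led by miR-126a-3p at 5506 CPM, had medians of -0.16, -0.19 and -0.01 in old AL against young AL, old CR against young AL and old CR against old AL, with none at an unadjusted p under 0.05. DESeq2 called 0 entries of both lists.

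The erythroid entries, led by miR-451-5p at 5.80 CPM, had medians of 0.55, -0.27 and -0.59 in the same order, with 0 called by edgeR. At an unadjusted p under 0.05 there were 1 of 4, 0 of 3 and 1 of 4, beside 23.4%, 25.5% and 12.0% of all entries. The erythroid entry under 0.05 was miR-144-5p, named after its values were seen. DESeq2 called it in old AL against young AL (log2 fold change 0.83, adjusted p = 0.0113). The striated muscle entries, led by miR-1b at 224430 CPM, had medians of 0.12, 0.13 and -0.13, with none at an unadjusted p under 0.05 and 0 called by DESeq2. miR-26 and miR-101 are known, like miR-214-3p, to repress Ezh2. Of 8 such entries 7 were tested, led by miR-26a-5p at 14492 CPM, with medians of 0.07, 0.22 and 0.14 and 0 called in any comparison by edgeR or DESeq2. Of the 7 tested, 1, 0 and 0 had an unadjusted p under 0.05, beside 23.4%, 25.5% and 12.0% of all entries.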
